A study of Mus musculus with 30 samples.

Results

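The comparison described here followed the transcriptome of vehicle-treated mHypoA-2/12 cells between 6 and 24 h. mHypoA-2/12 is an immortalized line derived from adult mouse hypothalamus. The members were the 3 libraries labelled CTR_24h and the 3 labelled CTR_6h, 6 of the 30 libraries of the series, and they were chosen by that treatment label alone. All 6 cultures received the DMSO vehicle at 0.1% in DMEM with GlutaMAX and no cannabidiol (CBD), so time is the one difference the labels give between the groups. The other 24 libraries came from the same line with CBD at 0.325, 0.75, 1.5 or 3 µM for 6 or 24 h, 3 libraries for each dose and time. The study's methods name serum for the growth medium and only DMEM with GlutaMAX for the treatment medium, and the cells were detached with trypsin before RNA was isolated. The series held no library without vehicle and none from time 0, and the labels do not say whether the 3 libraries of a group came from separate cultures. The p-values below therefore measure only a spread between libraries, which may be technical. For the tests of genes that spread was estimated over all 30 libraries, those with CBD included.

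Immediate early genes are regulators that stimulated cells transcribe rapidly and briefly, together with phosphatases and adaptors that restrain MAP kinase signalling. Growing cells invest in ribosome production and amino acid supply, pass the cell cycle under the control of cyclins and their inhibitors, and mesenchymal cells in particular secrete extracellular matrix. The gene lists below follow these programmes and those of stress, metabolism and cell identity.

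Expression was read with QuantSeq 3′ mRNA-Seq, which yields reads near the 3′ end of each transcript. The 6 h libraries held 1839621, 1919498 and 3574833 reads on genes, and the 24 h libraries held 4162843, 3020841 and 2942410. Levels are given as counts scaled to the library's reads on genes (CPM) after TMM normalization, in the order of replicates 1, 2 and 3. Because the reads are tags from the 3′ end, levels are compared between libraries and not between genes. Fold changes are on the log2 scale as 24 h minus 6 h, and a gene was called when the adjusted p of edgeR's quasi-likelihood test was below 0.1. In bulk RNA, fewer cells of a type and less RNA per cell cannot be told apart.

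The label of a hypothalamic neuronal line was checked against markers. Of 22 neuronal markers, 7 exceeded 10 CPM and 3 had no read in the 6 libraries. The summed level of the 22 was 209 to 242 CPM at 6 h and 205 to 209 CPM at 24 h, here without TMM scaling. Those above 10 CPM as the mean of both times were Tubb3, Map2, Eno2, Stmn2, Nefl, Nefm and Uchl1. The synaptic genes Snap25 and Syp and the neuronal splicing factor Rbfox3 stayed at or below 1.66 CPM in each library, and Gad1 had no read. Of 29 hypothalamic peptides and receptors, 16 had no read, including Npy and Pomc. Of 10 neural progenitor markers 5 exceeded 10 CPM, with a summed level of 2797 to 4310 CPM at 6 h and 2472 to 2714 CPM at 24 h, of which Vim, which mesenchymal cells also express, was the largest part. In addition, 14 of 15 mesenchymal and fibroblast markers exceeded 10 CPM, with a summed level of 9539 to 11854 CPM at 6 h and 10519 to 10745 CPM at 24 h. Sums of different lists are not compared here, since levels are not compared between genes. Markers of several kinds were read, so the cells are called mHypoA-2/12 cells below and are given no cell type.

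Time separated the vehicle libraries on the first principal component, which held 44.6% of the variance. The 6 h libraries lay between -45.2 and -23.3 on it, and the 24 h libraries lay between 24.7 and 40.8. The second component (23.6%) set 6 h replicate 3, at -47.0, apart from 6 h replicates 1 and 2, at 28.05 and 27.9. Distances between libraries were 67.0 to 85.2 within 6 h, 58.4 to 61.7 within 24 h and 74.9 to 101.8 between the times, so the ranges within 6 h and between times overlapped. Results that rest on 6 h replicate 3 are given with and without it.

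Of 12790 genes tested, 3421 (26.7%) were called between 24 and 6 h. At 24 h 1616 genes (12.6%) were higher and 1805 (14.1%) were lower, and the median log2 fold change over all genes tested was -0.03. A change of at least 2-fold was called for 593 genes upwards (4.64%) and 625 downwards (4.89%). For 4064 genes (31.8%) the 3 libraries of one time did not overlap with the 3 of the other. In each of the 6 fits that left out 1 vehicle library, 1453 of the 3421 genes (42.5%) were called in the same direction, 793 higher and 660 lower. The other calls were lost in at least 1 of these fits, which hold fewer libraries, and genes described with values for which this was so are marked below. Genes named without values are not all marked. Counts of 5 or fewer within a list often moved by more than 1.5-fold with 1 library left out. The shares over all genes, 12.6% higher and 14.1% lower, stand beside each list count below.

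**Figure D1:**
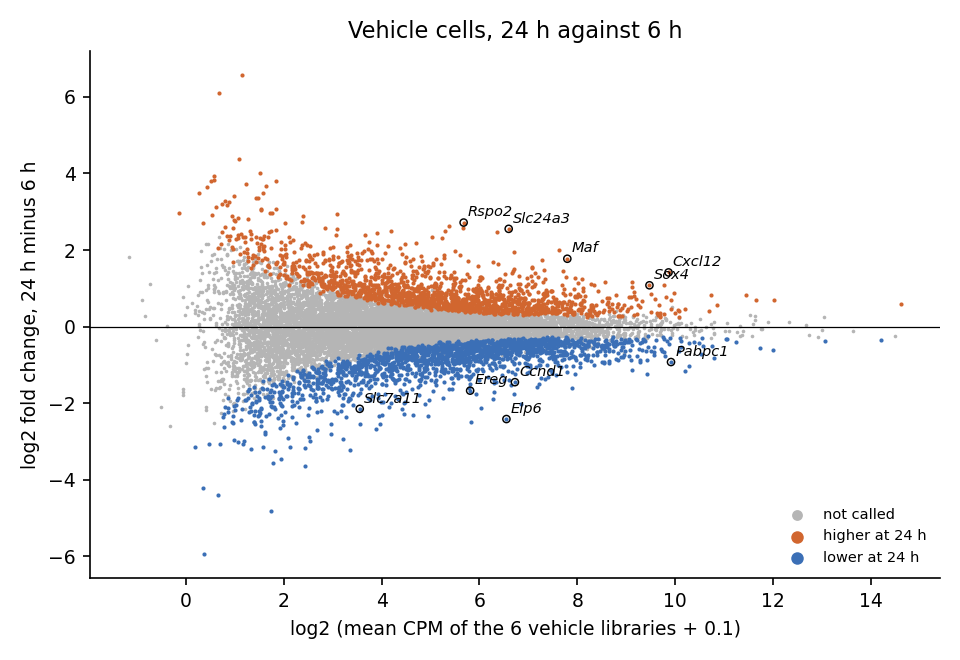
Log2 fold change (24 h minus 6 h) of each of the 12790 genes tested against its mean level in the 6 vehicle libraries on a log2 scale of CPM + 0.1; 1 point is 1 gene. The 1616 genes called higher at 24 h (orange) and the 1805 called lower (blue) lie on both sides of 0 over the whole range of expression, and several genes named in the text are circled.

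A property of the libraries moved with time and stands beside every result here. Reads with multiple alignments ranged from 24.9 to 26.2 per 100 uniquely mapped reads in the 6 h libraries and from 21.6 to 22.7 in the 24 h libraries. Their mean was 25.7 ± 0.702 at 6 h and 22.04 ± 0.617 at 24 h (SD, n = 3), with no overlap (exact permutation test, two-sided, p = 0.1, the smallest that 3 against 3 allows; adjusted p = 0.2 over 8 shares). Pseudogenes took 3.68 ± 0.132% of the reads on genes at 6 h and 2.49 ± 0.273% at 24 h (exact permutation p = 0.1, adjusted p = 0.2). In the CBD libraries the same 2 measures reached 23.02 to 27.7 and 3.08 to 4.31% at 6 h, and 21.2 to 25.1 and 1.84 to 4.02% at 24 h. Of 717 pseudogenes tested, 7 were higher and 319 lower at 24 h, with a median log2 fold change of -0.92. Among 10920 protein-coding genes the counts were 1500 and 1408 with a median of -0.01, and among 946 lncRNA genes they were 90 and 51 with a median of 0.21.

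When the number of multiple alignments entered the fit as a covariate, 561 genes were called, 327 higher (2.56%) and 234 lower (1.83%). Of these 561, 530 were called in the same direction without the covariate, and 98.4% of the 3421 genes kept their sign. Time and this property move together in these libraries and cannot be told apart, and 82 of the 187 genes that the naming rule chose were not called with the covariate. Counts with it are given for the lists below, with the genes described that lost their call.

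**Figure D2:**
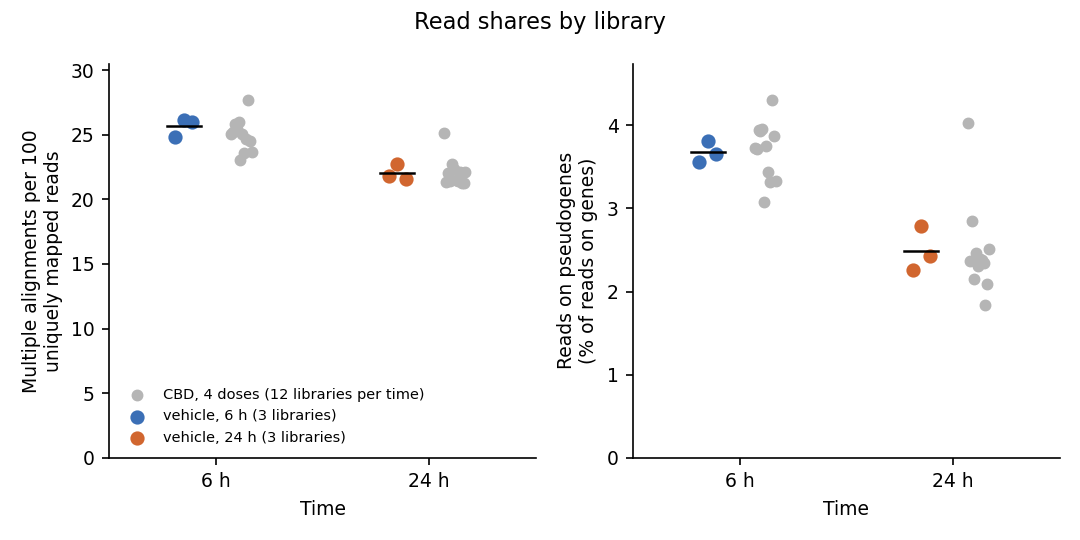
Multiple alignments per 100 uniquely mapped reads (left) and the percentage of reads on genes that fell on pseudogenes (right), for each library at 6 and 24 h. Blue and orange points are the 3 vehicle libraries of each time with their mean as a line, and grey points are the 12 CBD libraries of each time; in vehicle the 24 h libraries lie below the 6 h libraries on both axes without overlap.

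The genes of smallest p that were higher at 24 h included transporters, secreted ligands and transcription factors. Slc24a3 (ENSMUSG00000063873, chromosome 2 in GRCm38), a potassium-dependent sodium/calcium exchanger, was at 32.3, 29.3 and 24.2 CPM at 6 h and at 181, 141 and 173 CPM at 24 h. Its log2 fold change was 2.55 ± 0.16 (SE; adjusted p = 1.15e-15), and each 24 h library exceeded each 6 h library more than 4-fold. Rspo2, a secreted enhancer of Wnt signalling, was at 16.7, 12.8 and 11.7 CPM and then at 88.5, 73.3 and 104 CPM (2.72 ± 0.22, adjusted p = 3.12e-12). Cxcl12, the chemokine ligand of CXCR4, went from 527, 479 and 521 CPM to 1552, 1181 and 1343 CPM (1.42 ± 0.15, adjusted p = 1.15e-08). The 2 groups did not overlap for these genes, as the rule for choosing them required. A spread within a group that is small beside the difference also follows from choosing by smallest p.

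Maf and Sox4, both transcription factors, were of the same set. Maf, a basic leucine zipper factor, was at 96.8, 112 and 94.4 CPM at 6 h and 457, 267 and 308 CPM at 24 h, a log2 fold change of 1.77 ± 0.17. Sox4, an HMG-box factor of progenitor and mesenchymal cells, was at 476, 444 and 453 CPM and at 1004, 846 and 1051 CPM (1.08 ± 0.13, adjusted p = 5.22e-08). The kinase Mark1, which phosphorylates microtubule-associated proteins, rose by 1.69 ± 0.18. Others of this set were the nucleotide-sugar receptor P2ry14 (1.97), the actin regulator Phactr1 (1.57) and the PDZ and LIM protein Pdlim2 (1.46). The AAA ATPase Fign (1.76), the membrane protein Tmem98 (2.59) and the adhesion protein Mxra8 (1.24) also belonged to it. By size of change the rule added Gm10134 (2.93), the cysteine dioxygenase Cdo1 (2.63) and the semaphorin receptor Plxnb1 (2.57). These 15 genes were called in each of the 6 fits without 1 library and with the multiple-alignment covariate.

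Among the genes that fell, Elp6 (ENSMUSG00000054836, chromosome 9 in GRCm38), a subunit of the Elongator complex that modifies tRNA, had the smallest p. It was at 181, 169 and 125 CPM at 6 h and 27.5, 27.5 and 33.7 CPM at 24 h, with a log2 fold change of -2.41 ± 0.24 (adjusted p = 5.05e-08). Pabpc1, the main cytoplasmic poly(A)-binding protein, was at 1253, 1299.7 and 1247 CPM and at 636, 655 and 712 CPM (-0.92 ± 0.12, adjusted p = 4.42e-07). Itga6, an integrin subunit for laminin, was at 105, 101.4 and 102 CPM and at 39.1, 50.4 and 35.01 CPM (-1.31 ± 0.19, adjusted p = 2.89e-06). In each case the 3 libraries of 24 h lay below the 3 of 6 h, as the rule for choosing these genes required.

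Further genes of this set were the mitochondrial chaperone Hspa9 (-0.996), the nucleolar protein Ebna1bp2 (-1.37), the TWEAK receptor Tnfrsf12a (-1.67), the membrane-curving adaptor Baiap2l1 (-1.28) and lactate dehydrogenase Ldha (-0.84). Tnp1, known as a transition protein of sperm, was low throughout, at 12.2, 25.1 and 3.33 CPM and 2.10, 0.663 and 2.69 CPM (-2.81 ± 0.65). Ccl2, a chemokine for monocytes, was at 33.4, 27.2 and 226 CPM at 6 h and 14.4, 17.6 and 20.9 CPM at 24 h. Its log2 fold change of -2.50 ± 0.62 (adjusted p = 0.00721) rested on 6 h replicate 3, without which Ccl2 was not called, and the same held for the low-level lncRNA Wincr1 (-2.20). Neither was called with the covariate.

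**Figure D3:**
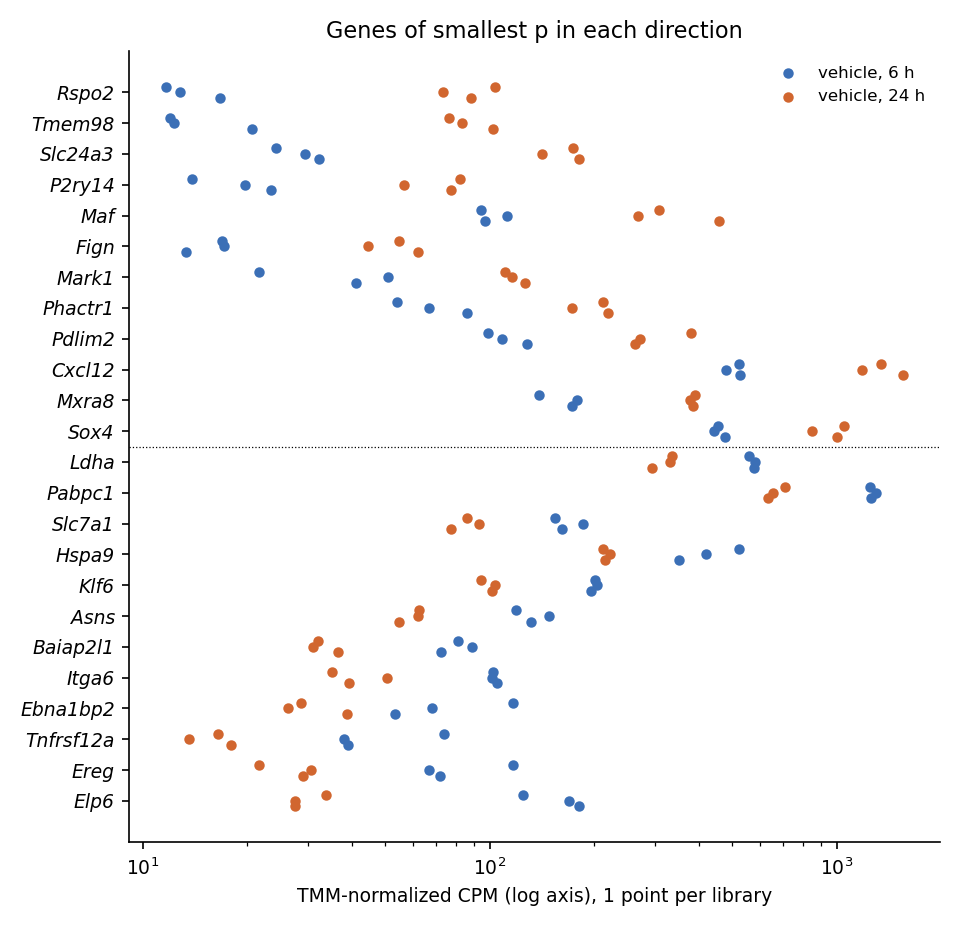
TMM-normalized CPM on a log axis in each of the 6 vehicle libraries, 1 point per library (blue 6 h, orange 24 h), for the 12 genes of smallest p in each direction; the dotted line parts the genes that rose (above) from those that fell (below). For each of the 24 genes the 3 libraries of one time lie apart from the 3 of the other, as the rule for choosing them required.

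Immediate early genes and the AP-1 factors were lower at 24 h. Of 24 members tested, 14 were called lower and 0 higher, with a median log2 fold change of -0.57 beside -0.03 over all genes. Fosb, a subunit of AP-1, was at 23.9, 26.7 and 24.4 CPM at 6 h and 3.73, 6.96 and 8.75 CPM at 24 h (-1.97 ± 0.36, adjusted p = 0.000145). Fos was at 41.7, 50.2 and 58.3 CPM and at 14.9, 28.5 and 14.5 CPM (-1.40 ± 0.25), and the small Maf protein Maff at 87.3, 144 and 109.4 CPM and at 52.9, 73.9 and 62.9 CPM (-0.85 ± 0.17). In the zinc finger factor Klf6 the libraries agreed closely, at 196, 204 and 200.5 CPM and then at 101.3, 104 and 94.3 CPM (-1.003 ± 0.13, adjusted p = 4.88e-07). Jun, Myc, Atf3, Egr1, Nr4a1, Klf4 and Klf10 were among the members that fell. Of these, Jun alone kept its call in every fit without 1 library. Junb, Jund, Fosl2 and Ier2 were among the 10 that were not called. Without 6 h replicate 3 the count was 9 lower and 1 higher, and with the multiple-alignment covariate 6 were lower, with Fos and Maff no longer called.

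The phosphatases and adaptors that restrain MAP kinase signalling followed the same direction. Of 15 tested, 9 were called lower and 0 higher, with a median of -1.04. Dusp6, a phosphatase of ERK, was at 80.1, 47.5 and 119 CPM at 6 h and 40.8, 20.9 and 25.2 CPM at 24 h (-1.51 ± 0.34, adjusted p = 0.00315). Dusp1, which inactivates several MAP kinases, was at 112, 85.4 and 142 CPM and at 48.2, 40.4 and 40.4 CPM (-1.40 ± 0.25, adjusted p = 0.000191). The receptor tyrosine kinase inhibitor Spry2 changed by -1.04 ± 0.26, and Ier3, which the immediate early list also holds, by -0.75 ± 0.17. In these genes 24 h lay below 6 h without overlap. The count was 5 without 6 h replicate 3 and 4 with the covariate, where Spry2 and Errfi1 were not called. Errfi1, an inhibitor of the EGF receptor, was at 48.9, 53.4 and 116 CPM and 44.02, 35.8 and 37.03 CPM and was called (-0.93 ± 0.24) only with 6 h replicate 3.

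Growth factors and ligands gave 11 lower and 1 higher of 26 tested, with a median of -0.34. Ereg, a ligand of the EGF receptor, was at 71.7, 66.7 and 117 CPM at 6 h and 28.9, 30.5 and 21.5 CPM at 24 h (-1.67 ± 0.24, adjusted p = 3.73e-06). Vegfa, the angiogenic ligand, was at 58.9, 53.9 and 86.1 CPM and 27.5, 35.8 and 29.96 CPM (-1.12 ± 0.22). Vegfd moved in the opposite direction, from 27.8, 21.9 and 22.8 CPM to 68.7, 54.04 and 71.03 CPM (1.43 ± 0.23, adjusted p = 1.47e-05), although it was not called with the covariate. Without 6 h replicate 3 the list gave 4 lower and 3 higher, without 24 h replicate 1 it gave 6 lower and 1 higher, and with the covariate 5 lower and 0 higher.

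Genes of the integrated stress response, which ATF4 drives when amino acids are short or the endoplasmic reticulum is strained, were lower at 24 h in 17 of 29 tested and higher in 1, Slc38a2, with a median of -0.80. The call for Slc38a2 was lost without any one of 6 h replicate 3 and 24 h replicates 1 and 3. Asns, asparagine synthetase, was at 132, 148 and 119 CPM at 6 h and 54.7, 62.00 and 62.3 CPM at 24 h (-1.15 ± 0.15, adjusted p = 3.15e-07). The cationic amino acid transporter Slc7a1 was at 161, 186 and 154 CPM and 77.1, 93.2 and 85.8 CPM (-0.97 ± 0.13), and Slc7a5, the light chain of the large neutral amino acid transporter, at 70.1, 80.6 and 75.8 CPM and 27.7, 34.8 and 30.97 CPM (-1.28 ± 0.25). Slc7a11, the cystine/glutamate exchanger, was at 14.5, 28.8 and 13.9 CPM and 3.73, 6.30 and 2.69 CPM (-2.15 ± 0.49, adjusted p = 0.00187). Psat1, of serine synthesis, changed by -0.74 ± 0.13, and Atf4 itself by -0.60 ± 0.15 (adjusted p = 0.00283). None of these genes overlapped between the times. The count lower was 17 without 6 h replicate 3, 14 to 17 over the fits without 1 library, and 10 with the covariate.

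The amino acid response element core TGATGNAA, searched on both strands in 250 bases before to 50 after the transcription start, was held by 7 of the 25 list members with a promoter sequence (28%) beside 2.71% of the 8958 tested genes with one. The 7 were Trib3, Chac1, Asns, Nupr1, Slc7a11, Vldlr and Pck2. Of these 5 were called lower, beside 15 of all 25 members with a promoter sequence. The members were chosen as known genes of this response. Their share of the motif describes the list and is no result of these data. The cAMP response element TGACGTCA was held by 2 of 19 immediate early members (10.5%; Maff and Btg2) and 2 of 13 MAP kinase feedback members (15.4%; Dusp1 and Errfi1) beside 3.77% of the tested genes. The E-box CACGTG was held by 7 of 34 ribosome biogenesis members (20.6%; Nop2, Pes1, Utp4, Utp20, Wdr43, Mybbp1a and Ltv1) beside 11.9%. Stretches upstream of the start are shown for 7 genes that fell, to let the matched letters be read in place. They are from RefSeq, build GRCm38.p6, 5′ to 3′ on the strand of the gene, and capitals mark 1 match per gene, which in Chac1 and Vldlr is on the other strand. Slc7a11 holds a further match on the other strand, in lower case. Nop2 lies at chr6:125131797-125131854 (+), Chac1 at chr2:119351023-119351082 (+), Slc7a11 at chr3:50443646-50443705 (-), Vldlr at chr19:27216794-27216853 (+), Btg2 at chr1:134079288-134079347 (-), Dusp1 at chr17:26508582-26508641 (-) and Errfi1 at chr4:150854993-150855052 (+). A match describes the letters only and does not show that a factor binds there.
Nop2: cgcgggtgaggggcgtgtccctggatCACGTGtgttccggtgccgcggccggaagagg
Chac1: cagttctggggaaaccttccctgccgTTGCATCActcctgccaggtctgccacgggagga
Slc7a11: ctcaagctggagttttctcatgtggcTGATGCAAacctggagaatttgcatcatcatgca
Vldlr: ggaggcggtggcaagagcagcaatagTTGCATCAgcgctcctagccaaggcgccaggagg
Btg2: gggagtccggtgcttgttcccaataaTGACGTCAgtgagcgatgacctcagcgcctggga
Dusp1: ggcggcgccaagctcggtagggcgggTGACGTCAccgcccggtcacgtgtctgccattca
Errfi1: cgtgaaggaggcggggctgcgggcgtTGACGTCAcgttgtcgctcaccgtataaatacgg

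Aminoacyl-tRNA synthetases, which charge tRNA for translation, were lower in 15 of 21 tested, with a median of -0.50. Iars, for isoleucine, was at 48.9, 49.1 and 63.03 CPM at 6 h and 24.5, 21.9 and 29.3 CPM at 24 h (-1.10 ± 0.19, adjusted p = 5.15e-05). Nars, for asparagine, was at 416, 455 and 395 CPM and 229, 302 and 229 CPM (-0.74 ± 0.13), and Lars and Rars, for leucine and arginine, changed by -0.77 ± 0.13 and -0.66 ± 0.14. The mitochondrial Fars2 was the 1 member that was higher (0.73 ± 0.32, adjusted p = 0.0957), and its call was lost in 4 of the 6 fits without 1 library. The count lower was 9 without 24 h replicate 1 and 10 without 6 h replicate 2, and with the covariate it was 3, with Rars and Fars2 not called.

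Ribosome biogenesis was the list with the largest share called lower among those with at least 10 members tested. Of 41 members, 31 were lower and 0 higher at 24 h, with a median of -0.63 that ranged from -0.71 to -0.52 when 1 library was left out. Wdr75, of the processome of the small subunit, was at 43.4, 40.5 and 59.7 CPM at 6 h and 20.3, 21.9 and 18.2 CPM at 24 h (-1.27 ± 0.24, adjusted p = 0.000157). Nop16, a nucleolar protein of large subunit assembly, was at 103, 90.7 and 106 CPM and 45.9, 60.3 and 49.5 CPM (-0.95 ± 0.16, adjusted p = 4.78e-05). Ncl, the abundant nucleolar protein nucleolin, was at 1034, 987 and 1094 CPM and 559, 735 and 699.8 CPM (-0.64 ± 0.12), and Rrs1 changed by -1.03 ± 0.20. Fbl, Npm1, Dkc1, Nop58, Polr1a and Polr1b also fell, with the calls for Fbl and Polr1b lost in at least 1 fit without 1 library. The count was 25 to 31 without 1 library and 10 with the covariate, where Rrs1 was not called.

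The ribosomal proteins themselves gave calls in both directions. Of 77 tested, 6 were higher and 12 lower, beside 12.6% and 14.1% over all genes tested, so the list as a whole did not stand out. Its median was -0.10, and 0.05 without 6 h replicate 3. Rpl34 fell from 866, 1020.1 and 1013 CPM to 386, 439 and 398 CPM (-1.25 ± 0.19, adjusted p = 2.46e-05), and Rps3 changed by -0.59 ± 0.13. Rpl26 rose from 472, 356 and 387 CPM to 614, 651 and 826 CPM (0.78 ± 0.17, adjusted p = 0.00158), and Rpl36 changed by 0.60 ± 0.13. These genes have many processed copies, so their reads may be split or lost, and of 102 ribosomal protein pseudogenes tested 52 were lower and 0 higher. With the covariate 3 ribosomal protein genes were higher and 1, Rpl34, lower, and Rps3 and Rpl26 were not called. The difference between the 2 lists was not tested.

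Extracellular matrix genes were the clearest group in the upward direction. Of 40 matrix glycoproteins and proteoglycans tested, 21 were higher and 5 lower at 24 h, with a median of 0.50. Ogn, the small leucine-rich proteoglycan osteoglycin, was at 73.4, 77.9 and 77.5 CPM at 6 h and 224, 167 and 177 CPM at 24 h (1.31 ± 0.17, adjusted p = 3.79e-07). Lamb2, the laminin beta 2 chain, was at 111, 108.8 and 69.1 CPM and 200.3, 214 and 265 CPM (1.25 ± 0.16, adjusted p = 3.15e-07). Ltbp2, of the microfibrils, changed by 1.11 ± 0.16, and Fbln5, needed for elastic fibre assembly, by 0.89 ± 0.13, each with no overlap between the times. Decorin (Dcn), biglycan (Bgn), fibronectin (Fn1) and fibrillin 1 (Fbn1) were also higher. The 5 lower members were Fbn2, Lamc1, Sdc4, Tnc and Vcan. In at least 1 fit without 1 library the calls for Dcn, Fn1, Fbn2, Sdc4 and Tnc were lost. Without 24 h replicate 1 the count higher was 13, and with the covariate it was 7, with 3 lower.

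Collagens and the proteins that process and crosslink them gave more calls upwards than downwards. Of 22 collagens 8 were higher and 2 lower (median 0.11), and of 21 processing and crosslinking genes 7 were higher and 0 lower (median 0.15). Col11a1 was at 77.8, 62.4 and 28.3 CPM at 6 h and 147, 171 and 142 CPM at 24 h (1.50 ± 0.25, adjusted p = 0.000127), and Col3a1 at 371, 274 and 322 CPM and 611, 500.3 and 590.4 CPM (0.82 ± 0.15). Col6a3 fell from 239.7, 213 and 245 CPM to 137, 119 and 129.9 CPM (-0.86 ± 0.13, adjusted p = 1.29e-05), and the most abundant collagen, Col1a1, was not called (-0.11 ± 0.12, adjusted p = 0.542). Sparc, a collagen-binding matrix protein, rose from 2206, 1999 and 1863 CPM to 3592, 3255 and 3825 CPM (0.81 ± 0.12, adjusted p = 6.11e-06). Lysyl oxidase (Lox), which crosslinks collagen and elastin, changed by 0.87 ± 0.17, Loxl1 by 0.72 ± 0.15 and the procollagen N-proteinase Adamts2 by 1.04 ± 0.21. With the covariate 2 collagens were higher and 2 lower, and of the processing genes Sparc alone was called.

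Matrix proteases and their inhibitors moved in both directions, with 8 higher and 5 lower of 24. The aggrecan-cleaving Adamts1 was at 90.6, 66.7 and 79.4 CPM at 6 h and 361, 249.97 and 330.2 CPM at 24 h (1.993 ± 0.24, adjusted p = 2.69e-06), and Adamts5 and Mmp11 changed by 1.41 ± 0.26 and 1.56 ± 0.25. The lower genes included the inhibitor Timp3, from 80.1, 106 and 133 CPM to 59.2, 49.4 and 51.8 CPM (-1.004 ± 0.20), and Plau, Plaur and Serpine2, which act in the plasminogen system. The call for Plau was lost without 6 h replicate 3 or 24 h replicate 3. Among 14 mesenchymal and fibroblast markers tested, which include Col3a1, 6 were higher and 1, S100a4, lower, the last a call lost without 24 h replicate 1. Thy1 changed by 0.93 ± 0.21 and the transcription factor Prrx1 by 0.44 ± 0.12. Without 24 h replicate 1 the marker list gave 3 higher and 0 lower. With the covariate the protease list gave 2 higher and 3 lower. The marker list gave 1 in each direction, the lower one not being S100a4. S100a4, Adamts5, Thy1 and Prrx1 were not called with it.

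**Figure D4:**
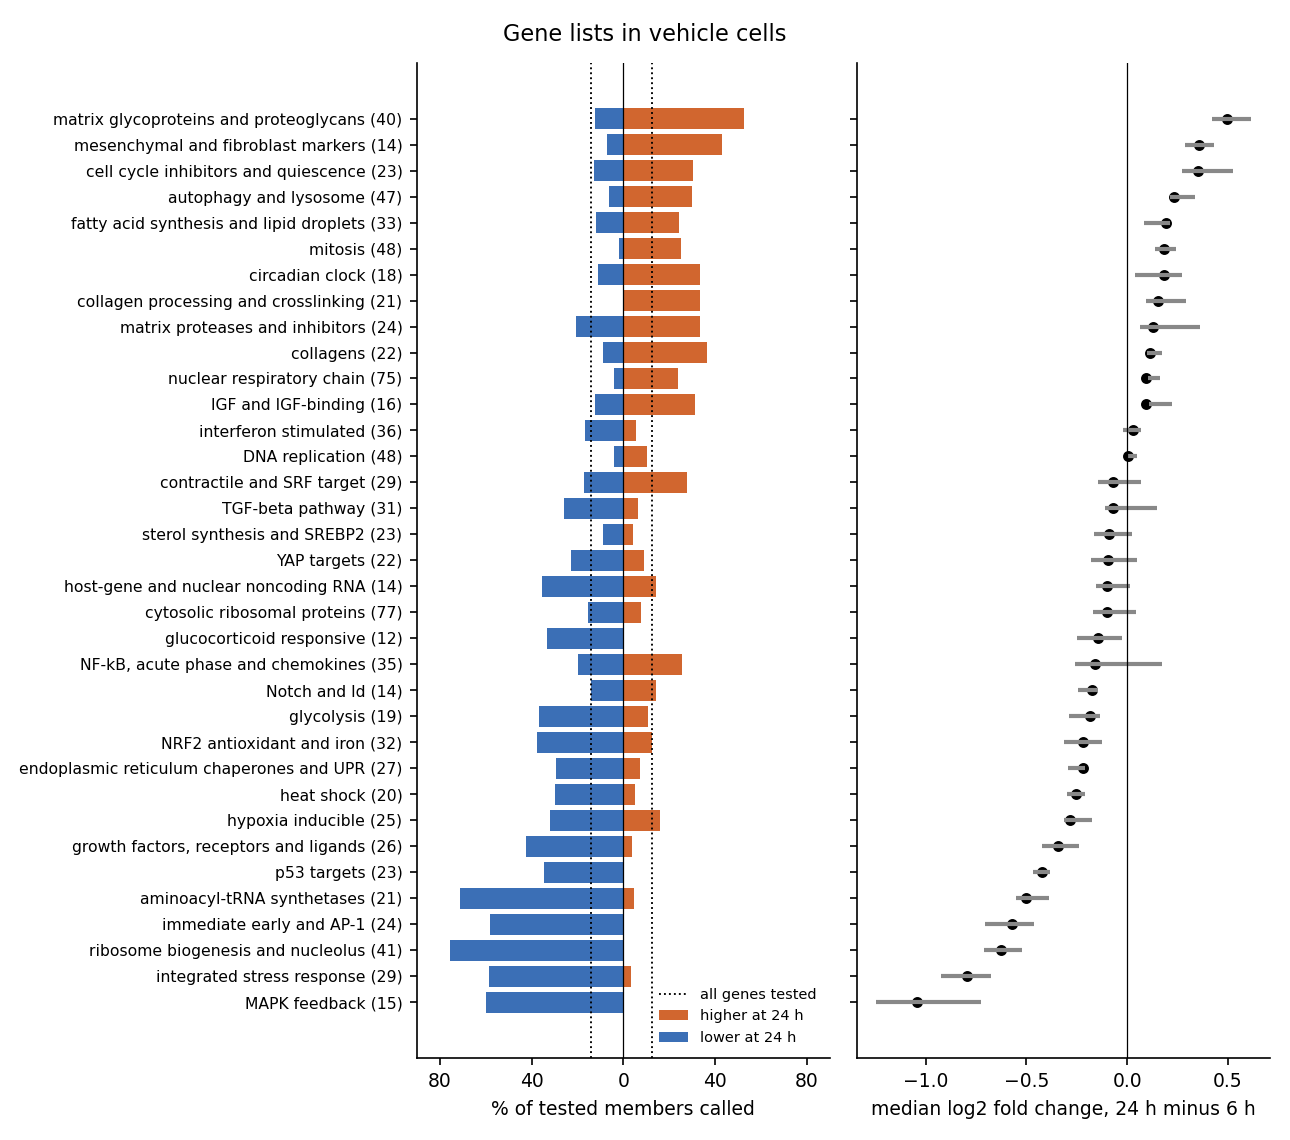
Left, percentage of tested members called higher (orange, to the right) or lower (blue, to the left) at 24 h for the 35 lists with at least 10 members tested, with the number tested in brackets; dotted lines mark 12.6% and 14.1%, the shares over all genes tested. Right, the median log2 fold change (24 h minus 6 h) of each list as a point, with the range over the 6 fits without 1 library as a bar, from -1.04 for MAPK feedback to 0.50 for matrix glycoproteins and proteoglycans.

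Cell cycle genes did not move as one block. Of 23 inhibitors and quiescence genes tested, 7 were higher and 3 lower, with a median of 0.35. Cdkn1b, which encodes the inhibitor p27, was at 152, 131 and 152 CPM at 6 h and 382, 289 and 379 CPM at 24 h (1.27 ± 0.20, adjusted p = 4.78e-05), and Cdkn2b, which encodes p15, at 16.7, 12.3 and 18.05 CPM and 42.6, 31.5 and 48.5 CPM (1.36 ± 0.25). Ccnd1, cyclin D1 of the G1 phase, fell from 118, 161 and 185 CPM to 55.4, 74.6 and 40.7 CPM (-1.45 ± 0.21, adjusted p = 1.03e-05). Cdkn1a, the inhibitor p21 and a p53 target, fell as well, from 639, 638 and 579 CPM to 409, 442 and 333 CPM (-0.65 ± 0.12). Without 24 h replicate 1 the list gave 4 higher and 2 lower, and with the covariate 2 and 2.

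Mitotic genes were higher in 12 of 48 and lower in 1, Plk1, with a median of 0.19. The call for Plk1 was lost without 24 h replicate 3. Ccnb2, cyclin B2, was at 31.7, 24.01 and 32.5 CPM at 6 h and 62.9, 42.4 and 64.3 CPM at 24 h (0.93 ± 0.22, adjusted p = 0.0018), and the spindle protein Nusap1 at 57.8, 57.6 and 64.1 CPM and 126, 96.1 and 94.9 CPM (0.82 ± 0.16). Incenp, of the chromosomal passenger complex, changed by 0.64 ± 0.13 and the kinetochore protein Spc24 by 0.82 ± 0.20. Mki67, Cdk1, Ccnb1 and Aurka were among the 35 not called. Of 48 DNA replication genes 5 were higher and 2 lower, with a median of 0.00, fewer calls for its size than over all genes. Cyclin E1 (Ccne1) was one of the 2 lower (-0.86 ± 0.21), and the polymerase subunit Pole was one of the 5 higher (0.60 ± 0.16). With the covariate 2 mitotic genes, Ccnb2 and Nusap1, and 0 replication genes were called.

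Of 23 p53 targets 8 were lower and 0 higher, with a median of -0.42. Beside Cdkn1a, the antiproliferative Btg2 was at 54.5, 44.3 and 50.3 CPM at 6 h and 27.5, 25.9 and 23.6 CPM at 24 h (-0.95 ± 0.23), and the kinase Plk2 at 48.4, 46.4 and 49.7 CPM and 22.8, 29.2 and 28.9 CPM (-0.84 ± 0.22). Mdm2, the ubiquitin ligase of p53, was at 93.98, 98.2 and 147 CPM and 82.7, 83.2 and 78.8 CPM (-0.49 ± 0.16, adjusted p = 0.0266) and was not called without 6 h replicate 3 or 24 h replicate 3. The count lower was 5 without any one of 6 h replicates 2 and 3 and 24 h replicates 2 and 3, and 2 with the covariate, where Btg2 and Plk2 were not called.

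Of 47 autophagy and lysosome genes 14 were higher and 3 lower, with a median of 0.24. Map1lc3b, the autophagosome membrane protein LC3B, was at 212, 202 and 211 CPM at 6 h and 351, 348 and 396 CPM at 24 h (0.81 ± 0.13, adjusted p = 2.4e-05). The lysosomal glucosidase Gaa was at 73.96, 85.4 and 73.9 CPM and 134, 129 and 138 CPM (0.79 ± 0.15), and the mannosidase Man2b1 changed by 0.86 ± 0.16. The protease cathepsin L (Ctsl) fell from 368, 438 and 669 CPM to 269, 251 and 242 CPM (-0.96 ± 0.16, adjusted p = 2.76e-05), with Sqstm1 and Atg5 as the other members that were lower. Neither Sqstm1 nor Atg5 kept its call in every fit without 1 library. The counts were 4 higher and 1 lower with the covariate, and 1 was lower without 24 h replicate 3.

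Among insulin-like growth factor genes, 5 of 16 were higher and 2 lower. Pik3ip1, an inhibitor of PI3 kinase, was at 10.6, 5.34 and 10.8 CPM at 6 h and 42.2, 29.2 and 30.3 CPM at 24 h (1.89 ± 0.27, adjusted p = 2.89e-06). The binding proteins diverged, with Igfbp4 at 403, 419.9 and 361 CPM and then 893, 625 and 711 CPM (0.92 ± 0.16) and Igfbp2 at 204, 241 and 204 CPM and then 63.1, 78.6 and 78.1 CPM (-1.56 ± 0.27, adjusted p = 0.000266). Without 24 h replicate 3 the count higher was 2, and without 24 h replicate 1 or either of 6 h replicates 1 and 2 it was 3. In the circadian clock list 6 of 18 were higher and 2 lower (median 0.18), with Clock and Csnk1e lower, Nr1d2 and Rora among the higher, and Arntl, Per1, Per2, Cry1, Cry2 and Nr1d1 not called. The call for Clock was lost without 24 h replicate 1 and that for Nr1d2 without 6 h replicate 3. Per3 was at 14.5, 22.4 and 11.9 CPM and 39.4, 44.1 and 57.2 CPM (1.56 ± 0.25, adjusted p = 1.58e-05) and the PAR bZIP factor Tef at 121, 78.96 and 64.1 CPM and 162, 132 and 199 CPM (0.92 ± 0.17). Nfil3, a repressor at the same sites, changed by 0.71 ± 0.17 and Csnk1e, a kinase of PER proteins, by -0.59 ± 0.15. With the covariate the insulin-like growth factor list gave 2 higher and 1 lower and the clock list 2 and 0, and Nfil3 and Csnk1e were not called.

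Metabolic lists gave calls in both directions. Of 19 glycolysis genes 7 were lower and 2 higher (median -0.19). Ldha was at 578, 582 and 559 CPM at 6 h and 294, 329.9 and 336 CPM at 24 h (-0.84 ± 0.13, adjusted p = 8.59e-06), and hexokinase 2 (Hk2) at 120.1, 130.2 and 170.2 CPM and 82.7, 99.1 and 70.4 CPM (-0.75 ± 0.16), whereas the muscle-type phosphofructokinase Pfkm rose by 1.12 ± 0.26. Without 24 h replicate 1 the glycolysis count lower was 3, and without 6 h replicate 2 it was 4. Of 25 hypoxia inducible genes 8 were lower and 4 higher (median -0.29), Anxa2 among the former (-0.52 ± 0.12). Of 75 nuclear respiratory chain genes 18 were higher and 3 lower (median 0.09), with small steps such as 0.46 ± 0.11 for Atp5o, 0.52 ± 0.12 for Uqcr11 and 0.58 ± 0.13 for Ndufa11, and 0 were lower without any one of 24 h replicates 2 and 3 and 6 h replicate 3. Of 8 mitochondrially encoded protein genes only mt-Nd4 was called, at 22151, 20888 and 17585 CPM and 24952, 26600.3 and 39170.1 CPM (0.58 ± 0.17, adjusted p = 0.0123), and not without 24 h replicate 3. With the covariate 1 glycolysis gene was higher and 2 lower, 0 hypoxia inducible genes were higher and 2 lower, 6 respiratory chain genes were higher and 0 lower, and neither Anxa2 nor mt-Nd4 was called.

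Of 33 fatty acid and lipid droplet genes 8 were higher and 4 lower (median 0.19), beside 12.6% and 14.1% over all genes tested. Of 23 sterol genes 1 was higher and 2 lower (median -0.09), fewer calls for its size than over all genes. The desaturase Fads1 changed by 0.48 ± 0.14, and the triglyceride-forming enzyme Dgat1 by 0.65 ± 0.19. The droplet protein Plin2 changed by -0.56 ± 0.16 with overlap between the times. Ebp, a sterol isomerase, changed by 0.56 ± 0.16. The call for Hmgcs1 (-0.42 ± 0.17), an enzyme early in sterol synthesis, was lost in 4 of the 6 fits without 1 library, and with the covariate 1 fatty acid and 0 sterol genes were called, none of those given here.

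Stress lists other than the integrated stress response leaned downwards. Of 32 NRF2 and iron genes 12 were lower and 4 higher (median -0.22). Txnrd1, a thioredoxin reductase, was at 150.1, 164 and 151 CPM at 6 h and 81.3, 105 and 84.2 CPM at 24 h (-0.78 ± 0.14), and the transferrin receptor Tfrc at 82.9, 71.5 and 99.1 CPM and 51.9, 36.5 and 47.5 CPM (-0.90 ± 0.17). The glutathione transferase Gstm1 rose from 83.4, 79.5 and 74.1 CPM to 149.5, 143 and 167 CPM (0.96 ± 0.14, adjusted p = 2.84e-06), and the lipid peroxidase Gpx4, low in these 3′ reads, from 8.90, 6.94 and 5.55 CPM to 29.8, 17.2 and 31.6 CPM (1.92 ± 0.37). Of 27 endoplasmic reticulum genes 8 were lower and 2 higher (median -0.22). The chaperone Hspa5, also called BiP, was at 5219.8, 5621 and 3999.99 CPM and 2744, 3831 and 3177 CPM (-0.61 ± 0.14), the sensors Ern1 and Atf6 changed by -0.83 ± 0.23 and -0.71 ± 0.19, and Sec24d, of the vesicle coat, by -0.74 ± 0.19. Without 6 h replicate 3 the list gave 5 lower and 0 higher, and 0 were called with the covariate, which left 3 NRF2 and iron genes higher and 8 lower.

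Of 20 heat shock genes 6 were lower and 1 higher (median -0.25), with the mitochondrial pair Hspd1 (-0.67 ± 0.14) and Hspe1 (-0.64 ± 0.14) and the cytosolic Hsph1 (-0.63 ± 0.13) among the former. Hspa1a, the stress-inducible Hsp70, was at 3.34, 1.60 and 41.6 CPM at 6 h and 3.03, 5.30 and 5.39 CPM at 24 h. Its fold change of -1.90 ± 0.64 (adjusted p = 0.0365) came from 6 h replicate 3 and became 0.88 without it, and it was not called without 24 h replicate 1 either. Without 6 h replicate 3 the heat shock list gave 4 higher and 6 lower, without 24 h replicate 1 it gave 1 and 3, and 0 were called with the covariate.

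Inflammatory genes showed both directions, 9 higher and 7 lower of 35, with a median of -0.16 that turned to 0.17 without 6 h replicate 3. Stat3, the transcription factor of the acute phase response, was at 197, 152 and 204 CPM at 6 h and 468, 339 and 315 CPM at 24 h (1.02 ± 0.15, adjusted p = 8.71e-06). Il1rn, the antagonist of the interleukin 1 receptor, was at 46.2, 38.4 and 34.2 CPM and 81.5, 73.3 and 76.8 CPM (0.98 ± 0.18). The prostaglandin synthase Ptgs2 fell from 67.8, 74.7 and 177 CPM to 25.2, 28.5 and 21.2 CPM (-2.12 ± 0.36, adjusted p = 0.000296), with 6 h replicate 3 highest but replicates 1 and 2 also above each 24 h library. The acute phase genes Lcn2, Saa3 and C3 were among the 9 higher, and the chemokines Ccl2, Ccl7 and Cxcl1 among the 7 lower. Each of these chemokine calls was lost without 6 h replicate 3. Without 6 h replicate 3 the counts were 8 higher and 2 lower, and with the covariate they were 2 and 2, with Il1rn not called.

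Of 36 interferon stimulated genes 6 were lower and 2 higher, with a median of 0.03 that was -0.02 without 6 h replicate 3. Isg15, a ubiquitin-like modifier, was at 15.01, 22.9 and 14.2 CPM and 4.89, 6.63 and 7.41 CPM (-1.46 ± 0.36), and the histocompatibility gene H2-D1 changed by -0.67 ± 0.21, a call lost without 6 h replicate 3. Here 6 h replicate 3 differed in the other direction, since Mndal stood at 132, 179 and 43.04 CPM at 6 h and 35.2, 45.8 and 47.1 CPM at 24 h, and Oasl1 at 50.05, 46.4 and 8.61 CPM and 10.5, 11.6 and 8.75 CPM. In both genes 6 h replicates 1 and 2 were high and 6 h replicate 3 lay among or below the 24 h libraries. With the covariate 2 of the list were lower and 0 higher, and H2-D1, Mndal and Oasl1 were not called.

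Lists of signalling and cytoskeletal targets gave calls in both directions. Of 29 contractile and SRF target genes 8 were higher and 5 lower (median -0.07), with myosin light chain kinase Mylk at 125, 89.1 and 44.98 CPM at 6 h and 224, 235 and 240.4 CPM at 24 h (1.47 ± 0.25), the coactivator Mrtfa at 0.90 ± 0.21, the focal adhesion protein Zyx at 0.51 ± 0.13 and Actn1 at -0.52 ± 0.11 on the log2 fold scale. Of 31 TGF-beta pathway genes 2 were higher and 8 lower (median -0.07, and 0.15 without 6 h replicate 3). Bmp4 rose from 103, 61.4 and 52.8 CPM to 178, 184 and 347 CPM (1.73 ± 0.40), while the activin subunit Inhba and its antagonist Fst fell, by 1.05 ± 0.18 and 0.99 ± 0.25 on the log2 scale. The TGF-beta count lower was 3 without 6 h replicate 3 and 4 without either of 24 h replicates 1 and 3. With the covariate it was 1, a gene not among the 8, and the contractile list gave 3 in each direction. Zyx, Bmp4, Inhba and Fst were not called with it. Without 6 h replicate 1 the contractile count lower was 2.

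YAP targets numbered 2 higher and 5 lower of 22, with the matrix-associated Ccn2 at 125, 112 and 206 CPM and 33.1, 44.1 and 79.1 CPM (-1.53 ± 0.41) and the angiomotin Amot at 0.81 ± 0.24. Leaving out 6 h replicate 3 or 24 h replicate 2 reduced the 5 to 2, and F3 (-1.50 ± 0.53) and Gadd45b (-0.69 ± 0.24) were among the calls lost. Of 14 Notch and Id genes 2 were higher, Notch3 (1.34 ± 0.41) and Rfng (0.66 ± 0.24), and 2 lower, Hes1 (-1.39 ± 0.27) and Id1 (-0.59 ± 0.17), and without 6 h replicate 3 neither Notch3 nor Rfng nor Id1 was called, nor Rfng without 24 h replicate 2. Of 12 glucocorticoid responsive genes 4 were lower and 0 higher, with metallothionein 2 (Mt2) at 875, 810.5 and 798 CPM and 472, 581 and 546 CPM (-0.64 ± 0.13) and the kinase Sgk1 at 329, 289.7 and 507 CPM and 207, 225 and 239 CPM (-0.75 ± 0.16). Of 14 noncoding RNAs 2 were higher and 5 lower. The nuclear Malat1 was at 2932, 2124 and 2358 CPM and 3922, 3461 and 4642 CPM (0.70 ± 0.21), and the antisense Kcnq1ot1 changed by -1.46 ± 0.27. The small nucleolar RNA hosts Snhg15 (-1.39 ± 0.36) and Snhg17 (-1.02 ± 0.29) were lower, and the count lower was 2 without 6 h replicate 3 and 3 without 24 h replicate 2. Without 6 h replicate 3 Snhg17 was not called, and the median turned from negative to 0.05 for the YAP list and 0.01 for the noncoding RNAs. With the covariate the YAP list gave 1 higher and 0 lower, the Notch and Id list Hes1 alone, the glucocorticoid list 3 lower, and the noncoding list 1 lower, Snhg17.

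Marker lists of neural and other cell types gave few calls. Of 9 neuronal markers tested, Map2 was higher, at 15.6, 9.07 and 16.7 CPM at 6 h and 31.7, 26.5 and 31.6 CPM at 24 h (1.09 ± 0.26), and the neurofilaments Nefl (-1.37 ± 0.31) and Nefm (-1.12 ± 0.29) were lower. None of 5 hypothalamic peptides and receptors tested was called, Nucb2 (0.04 ± 0.21) and Insr (0.09 ± 0.38) being the most abundant. Of 7 neural progenitor markers 1 was higher, Cd24a (0.60 ± 0.16), and 4 lower, with Vim at -0.41 ± 0.12 and Sox2 at -1.03 ± 0.41 among them, and the count lower was 2 without any one of 6 h replicate 3 and 24 h replicates 1 and 2. The call for Vim was lost without 6 h replicate 3, and that for Sox2 in 3 of the 6 fits. Of 5 astrocyte markers Slc1a3 (1.72) and Aldoc (1.43) were higher and Slc1a2 (-1.21) lower, with Slc1a3 lost in 3 of the 6 fits and Aldoc without 24 h replicate 1. Tmem119, a microglial marker that mesenchymal cells also express, rose from 209, 218 and 132 CPM to 309, 291 and 263 CPM (0.64 ± 0.17), and Cx3cr1 was lower (-1.04 ± 0.38), a call lost in 4 of the 6 fits. Of the oligodendrocyte list only Cnp was tested (1.005 ± 0.26), and the 1 endothelial and 2 epithelial markers tested were not called. None of these calls held with the covariate except that for Hes1, which the progenitor list also holds.

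Of the 8 most abundant genes 3 were called, mt-Nd4, mt-Rnr1 and mt-Rnr2. Actb, a cytoskeletal actin, was at 27219, 26839 and 20912 CPM at 6 h and 18589, 25551 and 19139.9 CPM at 24 h (-0.24 ± 0.13, adjusted p = 0.181) and was not called. The galectin Lgals1 (-0.28 ± 0.13), mt-Cytb (0.25 ± 0.21), mt-Nd1 (-0.08 ± 0.11) and mt-Nd2 (-0.11 ± 0.13) were not called either. The mitochondrial ribosomal RNAs mt-Rnr1 (-0.37 ± 0.13) and mt-Rnr2 (-0.34 ± 0.12) were called lower, but not in every fit without 1 library or with the covariate. Mitochondrial genes took 8.39 ± 0.0631% of reads on genes at 6 h and 8.92 ± 0.782% at 24 h (exact permutation p = 0.2, adjusted p = 0.267 over 8 shares), and reads outside genes were 20.04 ± 1.89% and 21.4 ± 0.714% (exact permutation p = 0.4, adjusted p = 0.457).

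The same change over time was read in the 24 CBD libraries, which share no library with the vehicle comparison. There 6826 genes (53.4%) were called between 24 and 6 h as the mean of 4 doses, with 12 libraries per time. Of the 3421 genes called in vehicle, 3317 had the same sign in the CBD libraries (97.0%), against 79.3% of all genes tested. Genes called in both in the same direction numbered 2939, which is 85.9% of the vehicle calls and 43.1% of the CBD calls. The median absolute log2 fold change of the vehicle calls was 0.80 in vehicle and 0.54 in the CBD libraries. Since these genes were selected in vehicle, a smaller size elsewhere follows in part from the selection. Across the 12790 genes the 2 changes correlated with r = 0.752, as a description over genes, which are not independent replicates, with the shift in multiple alignments common to both.

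In the CBD libraries the same lists were counted over the same genes, where 25.8% of all genes tested were called higher and 27.5% lower. Ribosome biogenesis gave 35 lower and 2 higher of 41 (median -0.51), the integrated stress response 19 lower and 3 higher of 29 (median -0.43), and the synthetases 18 lower and 1 higher of 21 (median -0.35). Immediate early genes gave 15 lower and 6 higher of 24 (median -0.35) and MAP kinase feedback 7 lower and 1 higher of 15 (median -0.39). For matrix glycoproteins the counts were 17 higher and 9 lower of 40 (median 0.10), and for interferon stimulated genes 20 higher and 3 lower of 36 (median 0.31).

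The difference between vehicle and CBD in the change over time was tested as an interaction in the same fit. It was called for 30 genes (0.235%), 14 with a more positive change in vehicle (0.109%) and 16 with a more negative one (0.125%), as against the mean of 4 doses. Against the 3 lower doses 19 genes were called (0.149%), 5 more positive in vehicle (0.0391%) and 14 more negative (0.109%). Against 3 µM 14 genes were called (0.109%), 10 more positive (0.0782%) and 4 more negative (0.0313%). At an unadjusted p below 0.05 there were 817, 930 and 1315 genes. These counts rested on single libraries, and their ranges without 1 library were 3 to 35, 1 to 50 and 1 to 300. The extremes were the fits without 24 h replicate 1 (3) and 6 h replicate 1 (35) for the mean of doses, 24 h replicate 2 (1) and 6 h replicate 1 (50) for the lower doses, and 24 h replicate 1 (1) and 6 h replicate 3 (300) for 3 µM.

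Dusp1 had the smallest p for such a difference. It fell in vehicle, by 1.40 on the log2 scale, while its change in the CBD libraries was 0.37, a difference of -1.77 ± 0.27 (adjusted p = 0.00582). Gadd45g, a stress-inducible partner of cell cycle and MAP kinase kinases, was at 60.6, 61.9 and 121 CPM at 6 h and 36.8, 44.8 and 53.2 CPM at 24 h in vehicle (-0.89) and changed by 0.30 in CBD. Ndrg1 was at 128, 172 and 99.7 CPM and 94.3, 87.5 and 76.8 CPM in vehicle (-0.61) and changed by 0.33 in CBD. In vehicle the call for Gadd45g was lost without 6 h replicate 3, and that for Ndrg1 without 6 h replicate 2 and with the covariate. The differences for Dusp1 and Elp6 were called in each of the 6 fits without 1 library. Those for Gadd45g and Ndrg1 were lost in 2 of them each. Elp6 was lower at 24 h in both, by -2.41 in vehicle and -0.84 in CBD on the log2 scale. Xist, the noncoding RNA that silences an X chromosome, was at 100.1, 98.7 and 142 CPM and 225, 208 and 205 CPM in vehicle (0.89 ± 0.14, adjusted p = 1.55e-05) and changed by 0.06 in CBD, a difference that was not called without 24 h replicate 1.

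**Figure D5:**
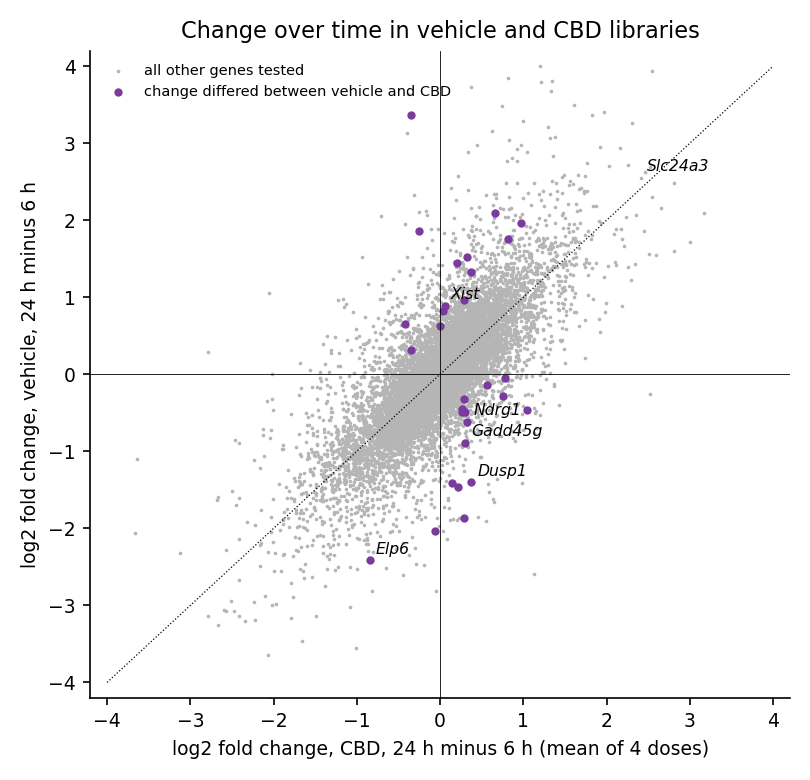
Log2 fold change over time (24 h minus 6 h) of each gene in vehicle (vertical) against the mean of 4 CBD doses (horizontal), with equal changes on the dotted line; 7 of the 12790 genes lie beyond the axes. The changes correlate across genes with r = 0.752, 79.3% of genes have the same sign in both, and the 30 genes whose change differed between vehicle and CBD are purple, with Dusp1, Gadd45g and Ndrg1 below 0 in vehicle and above 0 in CBD.

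Called in opposite directions in the 2 comparisons were 16 genes. Lower in vehicle and higher in CBD were Dusp1, Gadd45g, Ndrg1, Trib1, Snhg1, Mdm2, Bbc3, Egr1, Sqstm1, Gdf15 and 1 gene without a symbol, and higher in vehicle and lower in CBD were Uqcrc1, Ptprb, Nbea, Thbs2 and 1 predicted gene. These were named because they are few and after their values were seen. Many of the vehicle calls were not stable. Those for Gadd45g, Ndrg1, Snhg1, Mdm2, Bbc3, Egr1, Sqstm1, Gdf15, Uqcrc1 and Thbs2 were lost in at least 1 fit without 1 library. With the multiple-alignment covariate Ndrg1, Snhg1, Bbc3, Egr1, Sqstm1 and Thbs2 were not called in vehicle. Neither point was examined for Trib1, Ptprb, Nbea and the genes not named here. The difference itself passed the test for 9 of them, Dusp1, Gadd45g, Ndrg1, Trib1, Snhg1, Mdm2, Ptprb, Sqstm1 and Thbs2. Opposite calls in the same fit were the condition for this set, which favours passing that test.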

How the data were processed

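Vehicle-treated mHypoA-2/12 cells were analysed at 6 and 24 h (3 libraries each). The deposited files hold whole-number counts of reads per gene. Per the study's methods and the submitters' processing notes, the authors checked reads with FastQC (0.11.9), trimmed them with Flexbar, aligned them to GRCm39 with STAR (2.7.5c), counted uniquely mapped reads per gene with HTSeq (1.99.2) and tested with DESeq2. Rows of the files that name no gene were left out of library sizes: reads outside genes were 20.04% and 21.4% of uniquely mapped reads at 6 and 24 h, and ambiguous reads 4.91% and 4.79%. Multiply aligned reads were not counted, so genes with near-identical copies may lose reads.

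All 30 libraries, with a mean for each of 10 groups, entered 1 edgeR (4.0.16) quasi-likelihood fit in R (4.3.3) after filterByExpr and TMM normalization; the CBD libraries thereby enter the filter, the scaling and the dispersion behind the vehicle contrast, whose fold changes come from the vehicle libraries. The Benjamini-Hochberg adjustment covered the 12790 genes tested, and 0.1 was the threshold. An adjusted p is from this test throughout. DESeq2 (1.42.0) was an alternative. Shares of reads were compared by exact permutation tests (scipy 1.17.1). The scripts were tested on simulated data with 200 genes changed by 2-fold or 1.5-fold, of which edgeR called 95. Of its calls there 7.77% were false. A gene not called here may therefore still have changed. Depth was 1839621 to 4162843 reads on genes per library.

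Symbols, gene classes and chromosomes came from GENCODE M21 (GRCm38), in which 52000 of 56941 gene identifiers had a name; coordinates in GRCm39 are not used here. Named genes were the 12 of smallest p per direction without overlap and with at least 10 CPM in the higher group, the 5 of largest change under the same conditions, up to 4 called members of each of 44 lists (or the 2 most abundant), the 8 most abundant genes and the 5 of smallest p per interaction test. Genes outside this rule are named as list members or were chosen after their values were seen. The members and lists were chosen with earlier results of these data known, so no list was given a test. Values of a few list members are not reported here, and the list counts include them.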

Additional observations from a re-analysis of the deposited data

Results flagged for a closer look

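The change from 6 to 24 h differed between vehicle and CBD in the interaction test of edgeR's quasi-likelihood fit for the genes below, given as vehicle minus CBD on the log2 scale. Against the mean of 4 doses the differences were -1.77 for Dusp1, -1.57 for Elp6, 0.84 for Xist, -1.18 for Gadd45g and -0.94 for Ndrg1. Against the 3 lower doses they were -1.92 for Dusp1, -0.94 for Zfas1, -0.98 for Ndrg1, -1.13 for Gadd45g and -0.90 for Mdm2. Zfas1, a small nucleolar RNA host, was at 91.2, 95.5 and 129.9 CPM at 6 h and 103, 94.5 and 111 CPM at 24 h in vehicle, a change of -0.05, and changed by 0.89 in the lower doses. Against 3 µM they were -2.27 for Elp6, 1.05 for Xist, 1.40 for Fign, 1.48 for Tmem98 and 1.22 for Maf. In the 3 µM libraries alone the changes were -0.14 for Elp6, -0.16 for Xist, 0.36 for Fign, 1.11 for Tmem98 and 0.55 for Maf, beside -2.41, 0.89, 1.76, 2.59 and 1.77 in vehicle. With 1 vehicle library left out at a time, Dusp1 and Elp6 kept their calls in each of the 6 fits. Without 24 h replicate 1 the differences of Xist, Fign, Tmem98 and Maf against 3 µM and of Xist against the mean of doses were not called. Against the mean of doses the calls for Gadd45g and Ndrg1 were lost in 2 fits each, and against the lower doses those for Zfas1 in 2, Ndrg1 in 3, Gadd45g in 3 and Mdm2 in 4. The 3 tests share the vehicle libraries, so a gene that appears in several is not independent evidence.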

How the results depend on the processing

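The number of genes called between 24 and 6 h in vehicle was 3421 and stayed within 1.5-fold under DESeq2 (3235), DESeq2-type size factors in edgeR (3412), no filter (2955), a minimum of 10 reads in every vehicle library (2927), the 6 vehicle libraries alone (2411), without mitochondrial genes (3389), with reads outside genes as a covariate (2829) and in fits without 1 library (2369 to 3397). It was 2228 when tested against a 1.2-fold change, which is stricter by construction. With multiple alignments as a covariate, chosen after seeing the data, it was 561, and the cause was not tested. Protein-coding genes alone, also chosen after seeing the data, gave 2934. The share of calls that were higher was 47.2%, and 58.3% with that covariate.

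The interaction counts were less stable. For the mean of 4 doses 30 genes became 48 with DESeq2, 73 without a filter and 3 to 35 without 1 library. For the lower doses 19 became 38, 65 and 1 to 50, and for 3 µM 14 became 56, 123 and 1 to 300. The cause was not tested. The CBD change over time gave 6826 genes and 6839 to 7106 under the alternatives. The differences in shares of reads kept their sign without 1 library, an alternative added after seeing the data: -1.33 to -1.07 percentage points for pseudogenes, -4.03 to -3.38 multiple alignments per 100 uniquely mapped reads, 0.292 to 2.06 points outside genes and 0.0774 to 0.776 points for mitochondrial genes.

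Of 187 named genes, 184 kept direction and side of the threshold under DESeq2, 162 without 6 h replicate 3 and 105 with the multiple-alignment covariate. The fold change of Hspa1a turned from -1.90 to 0.88 without 6 h replicate 3, and was between -2.38 and 0.88 over the fits without 1 library. No paired analysis was possible because the labels number no replicates, and the numbers used here only follow the order of the libraries. Depth was lowest in 6 h replicate 1, with 1839621 reads on genes, which limits the precision for low genes.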
